A study of Mus musculus with 5 samples.

Results

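The 4 sarcomeric myosin heavy chains on the array, Myh7, Myh2, Myh1 and Myh4, were examined in the soleus of 5 mice. They were chosen by gene symbol in the platform annotation, which gave 1 probe for each gene, or 4 of the 223 probes in the table. All samples belong to a single group: soleus, a slow postural muscle of the calf, of C57Bl/6 mice titled HUR wt, reloaded for 7 days. Reloading follows a period of unloading, so all samples share that earlier treatment as well. Per the labels, 3 microgram of total RNA from cryosections went onto each array. The titles number the samples 1, 3, 4, 5 and 6, and these numbers are used here for the mice. Wherever 5 values are given in a row, they stand for mice 1, 3, 4, 5 and 6 in that order. No muscle before or without reloading was analysed here, so no difference between conditions was tested, and the values describe these 5 samples.

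Myosin heavy chain is the motor protein of the thick filament, and the chain a fibre carries largely sets how fast it shortens. Myh7 encodes the slow chain of type I fibres, and Myh2, Myh1 and Myh4 the fast chains of type IIA, IIX and IIB fibres, in order of rising shortening speed. In the mouse the soleus is a mixture of mainly type I and type IIA fibres, and fibre type there is known to depend on nerve activity and load. RNA of whole muscle cannot tell fewer fibres of a type apart from less RNA per fibre.

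The slow and fast genes lie in different places in the genome. In the RefSeq gene table of GRCm38.p6, Myh2, Myh1 and Myh4 follow one another on chromosome 11 with no other protein-coding gene between them, flanked by Myh3 and Myh8, the embryonic and perinatal chains. Myh7 lies on chromosome 14 beside Myh6, the cardiac alpha chain. The annotation pairs the probes 14O, 16O, 18O and 20O with Myh7, Myh2, Myh1 and Myh4 (Entrez Gene 140781, 17882, 17879 and 17884). The part of each transcript that a probe covers is not given in the sources used here, and the chains are similar in sequence. Whether a probe also bound a neighbouring chain was not tested.

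The signals of the 3 fast chains ran more evenly with one another than with Myh7, though for Myh4 not without mouse 5, as the ratios below describe. Whether the sequences before the genes bear on this was not tested. The 250 bases before the start of each gene are shown. They are RefSeq sequences of GRCm38.p6, written 5′ to 3′ on the gene's strand. Capitals mark the longest run of letters that the windows of all 3 fast chains share, and TATAAA as read on that strand.
Myh2, chr11:67170777-67171026, + strand: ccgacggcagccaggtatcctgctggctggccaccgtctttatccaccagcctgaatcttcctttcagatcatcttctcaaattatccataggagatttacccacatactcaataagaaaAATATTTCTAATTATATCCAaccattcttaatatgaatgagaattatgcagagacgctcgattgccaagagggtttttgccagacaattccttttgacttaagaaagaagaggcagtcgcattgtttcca
Myh1, chr11:67199852-67200101, + strand: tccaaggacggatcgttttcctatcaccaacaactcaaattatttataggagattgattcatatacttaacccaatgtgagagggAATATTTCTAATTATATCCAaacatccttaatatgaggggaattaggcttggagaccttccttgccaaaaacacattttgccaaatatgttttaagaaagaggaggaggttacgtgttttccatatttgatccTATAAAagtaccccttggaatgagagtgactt
Myh4, chr11:67237562-67237811, + strand: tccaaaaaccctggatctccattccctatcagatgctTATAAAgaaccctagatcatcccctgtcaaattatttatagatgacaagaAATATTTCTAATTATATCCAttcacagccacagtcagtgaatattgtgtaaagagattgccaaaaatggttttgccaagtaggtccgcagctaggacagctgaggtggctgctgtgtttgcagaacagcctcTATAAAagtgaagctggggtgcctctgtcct
Myh7, chr14:54994550-54994799, - strand: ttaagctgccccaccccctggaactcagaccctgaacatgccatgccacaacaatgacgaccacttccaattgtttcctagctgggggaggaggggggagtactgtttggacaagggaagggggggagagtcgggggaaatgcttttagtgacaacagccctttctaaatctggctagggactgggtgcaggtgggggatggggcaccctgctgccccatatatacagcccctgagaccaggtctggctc

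The shared run, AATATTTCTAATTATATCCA, is 20 bases long. It lies at positions -130 to -111 in Myh2, -165 to -146 in Myh1 and -163 to -144 in Myh4, counting the annotated start as position 0. Of 32851 start windows of 300 bases in the table, 3 held it on either strand, those of Myh2, Myh1 and Myh4. The longest run that the printed Myh7 window, with the 50 bases after its start, shared with any fast chain was 9 bases long, attgtttcc, in Myh2.

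Further letters were searched on both strands of the 300-base windows, from 250 bases before the start to 50 after it. TATAAA, the TATA box, lay at -32 to -27 in Myh1 and -31 to -26 in Myh4, but at 10 to 15 in Myh2, past its annotated start. Myh4 held it also at -213, and each of Myh1 and Myh4 once more on the other strand. It was in 13.6% of all windows. CANNTG, the E-box that myogenic factors such as Myod1 can bind, was found 3 times in Myh4, at -221, -67 and 41, and in 72.3% of all windows. The Myh2 and Myh1 windows held no such letters. The printed Myh7 window held CANNTG at -183 and -62. A CArG box, the motif of serum response factor, lay at -104 to -95 in Myh4 and in 1.63% of all windows. MEF2 motifs lay at -211 to -202 in Myh1 and -182 to -173 in Myh4, each overlapping a TATAAA match on the other strand, and in 3.19% of all windows. CATTCC, the core of the MCAT motif, was in Myh1 at -16, in Myh4 at -231 and in 14.7% of all windows. RefSeq lists a second, overlapping start window for Myh7, not printed, which held CATTCC at -201 from its own start. These matches are descriptions of letters, and no binding was measured.

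**Figure D1:**
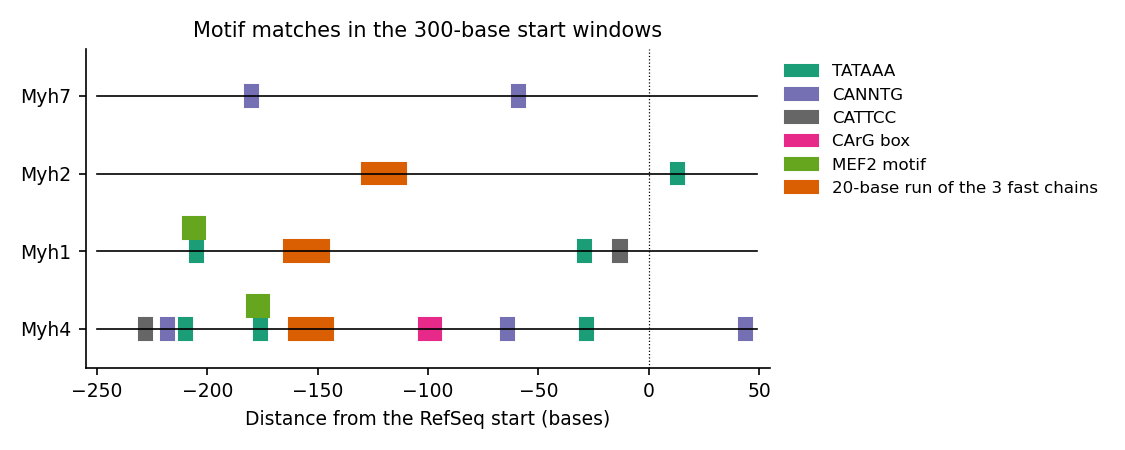
Matches to the searched letters in the start windows of Myh7, Myh2, Myh1 and Myh4, by distance in bases from the RefSeq start (dotted line, position 0); for Myh7 the printed window is drawn, and MEF2 motifs are raised above the line. The orange block, the 20-base run, stands before the start of all 3 fast chains, and Myh4 holds 3 of the CANNTG matches.

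All 4 chains gave strong signals in every mouse, and Myh7 gave the strongest of them in each. Levels are the deposited intensities, in arbitrary units. By brightness among the 223 probes of its array, Myh7 ranked between 4 and 6, Myh2 between 8 and 9, Myh1 between 10 and 13 and Myh4 between 18 and 23. The signals of the arrays as wholes differed, with totals from 70.8 to 137, so an order of the mice by deposited signal also holds the brightness of their arrays, and chains are set beside each other only within an array. Between 20 and 59 probes per array were at or below 0, and the lowest value on any array was -0.0168, far from the weakest signal of a heavy chain, 0.448.

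Myh7, the slow chain, was at 5.33, 4.54, 3.92, 2.86 and 5.60, a mean of 4.45 ± 1.10 (SD, n = 5). Mouse 5 was the lowest and mouse 6 the highest. Mouse 5 was also lowest when Myh7 was expressed as a percentage of the array total, at 3.50%, and relative to the 28S ribosomal RNA probe, at 0.320. Relative to the median of the 147 probes above 0 on all 5 arrays, mouse 6 and mouse 5 were about equally low, at 6.15 on the log2 scale, and mouse 3 was highest at 6.65.

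Myh2, the IIA chain, was at 3.01, 1.52, 2.02, 1.74 and 2.10, a mean of 2.08 ± 0.569 (SD, n = 5). Mouse 1 was highest and mouse 3 lowest. As a percentage of the array total the highest was mouse 4, at 2.86%, and the lowest mouse 6, at 1.61%.

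Myh1, the IIX chain, was at 2.51, 1.30, 1.28, 1.28 and 1.46, a mean of 1.57 ± 0.535 (SD, n = 5). Mouse 1 stood alone above the others, which lay close together. Its array had the largest total, and as a percentage of the total Myh1 in mouse 1 was at 1.83%, beside 1.81% in mouse 4. The brightest probe gave 63.2 of the total of 137 in mouse 1 and 25.1 of 70.8 in mouse 4. Relative to the median used above for Myh7, mouse 1 was highest, at 5.50 on the log2 scale. Mice 3, 4, 5 and 6 were at 4.85, 4.86, 4.98 and 4.21. Relative to the ribosomal RNA probe, mouse 4 was highest at 0.332, with mouse 1 at 0.267.

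Myh4, the IIB chain and the fastest, was at 0.760, 0.477, 0.448, 0.491 and 0.611, a mean of 0.557 ± 0.129 (SD, n = 5). As a percentage of the total it ran from 0.466% in mouse 6 to 0.633% in mouse 4.

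**Figure D2:**
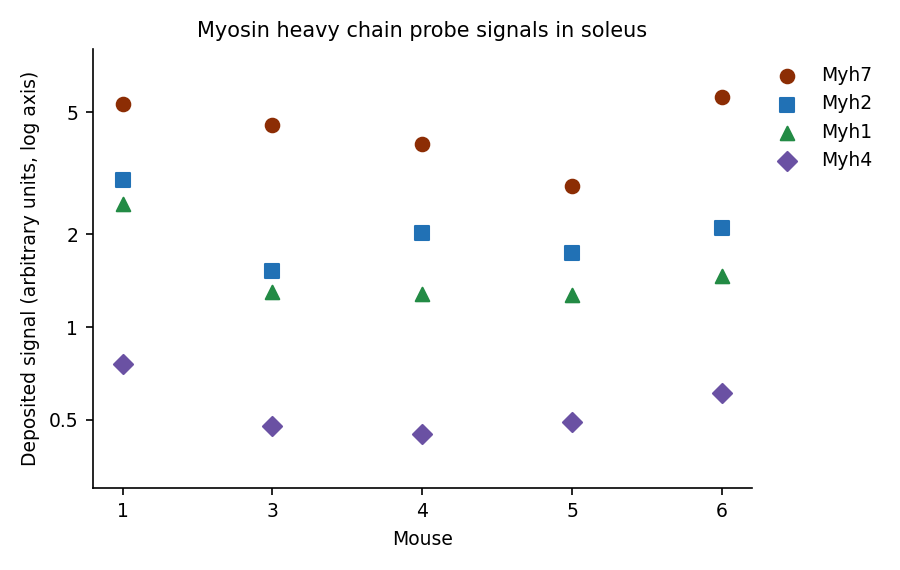
Deposited signal of each heavy chain probe (log axis, arbitrary units) on the array of each of the 5 mice; each point is 1 array. In every mouse the signals run Myh7, Myh2, Myh1, Myh4 from high to low, with Myh7 between 2.86 and 5.60 and Myh4 between 0.448 and 0.760.

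The order of signals was the same in all 5 mice: Myh7, then Myh2, Myh1 and Myh4. It is an order of probe signals. Each probe binds and labels with an efficiency of its own that the files do not give, so the order and the sizes of the ratios are not those of transcripts per fibre. That efficiency is taken to be the same on every array, and the ratios are therefore compared only between mice.

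The ratio of each fast chain to Myh7 differed between mice by 1.63 to 1.82 times, and mice 1 and 5 were the highest for each chain. The ratio of Myh2 to Myh7 was 0.565, 0.335, 0.516, 0.609 and 0.376. On the log2 scale the mean was -1.10 ± 0.38 (SD, n = 5). Mice 5, 1 and 4 lay together, and mice 3 and 6 below them, with a range of 1.82-fold.

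Myh1 over Myh7 was 0.472, 0.286, 0.326, 0.445 and 0.262, a log2 mean of -1.52 ± 0.38 (SD, n = 5). Here mouse 4 lay nearer to mice 3 and 6 than to mice 1 and 5. The range was 1.80-fold.

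Myh4 over Myh7 was 0.143, 0.105, 0.114, 0.172 and 0.109, a log2 mean of -2.99 ± 0.30 (SD, n = 5). Mouse 5 was the highest, and mice 3, 4 and 6 were close together. The range was 1.63-fold. Since all 3 ratios divide by the same Myh7 value, a low Myh7 signal raises them together, and in mouse 5 Myh7 had its lowest deposited signal. They are therefore not 3 separate observations.

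The array of mouse 1 ranked the 147 probes least like the others, with a mean Spearman correlation of 0.878 with the other arrays against 0.941 to 0.947 for theirs, across probes, which are not independent. Without it the log2 means of Myh2, Myh1 and Myh4 over Myh7 were -1.16, -1.63 and -3.03, shifts smaller than the SD between mice.

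As a sum, the 3 fast chains gave 1.18, 0.726, 0.956, 1.23 and 0.747 times the signal of Myh7. The fast sum thus exceeded the slow signal in mice 1 and 5 and lay below it in the others, and where the line of 1 falls depends on the probes' unknown efficiencies. The share of Myh7 in the summed signal of the 4 chains was 45.9%, 57.9%, 51.1%, 44.9% and 57.3%, a mean of 51.4% ± 6.11 (SD, n = 5). Over the mice the share of Myh2 was 24.1% ± 3.45, that of Myh1 18.0% ± 2.75 and that of Myh4 6.48% ± 0.731 (SD, n = 5).

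Among themselves the fast chains kept a more even ratio. Myh1 over Myh2 was 0.835, 0.854, 0.632, 0.731 and 0.696, a range of 1.35-fold with a log2 mean of -0.43 ± 0.18 (SD, n = 5). Mouse 4 was lowest, with the most Myh2 for its Myh1. Myh4 over Myh2 was 0.252, 0.313, 0.221, 0.282 and 0.290, a range of 1.41-fold with a log2 mean of -1.89 ± 0.20 (SD, n = 5). Myh4 over Myh1 was 0.302, 0.367, 0.350, 0.385 and 0.417, a range of 1.38-fold with a log2 mean of -1.46 ± 0.17 (SD, n = 5). Mouse 1 was lowest in this last ratio and mouse 6 highest. Within the fast signal, Myh2 held 49.6% ± 2.93, Myh1 37.0% ± 2.62 and Myh4 13.4% ± 1.30 (SD, n = 5).

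The SDs of the log2 ratios to Myh7, 0.30 to 0.38, were all larger than those among the fast chains, 0.17 to 0.20. This held with quantile-normalised values, at 0.32 to 0.44 against 0.19 to 0.27, with the lowest or the median value of each array subtracted, and without each of mice 1, 3, 4 and 6. Without mouse 5 it did not hold for Myh4, whose ratio to Myh7 then had an SD of 0.20 and its ratio to Myh2 one of 0.22. The difference between the SDs was not tested, as the 6 ratios share 4 probes and 5 arrays.

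To place these spreads, every pair among the 49 brightest of the 147 probes was treated in the same way, 1176 pairs in all, with a median SD of 0.51. All 4 heavy chains are among the 49. An SD smaller than that of Myh2 over Myh7 was found in 29.3% of these pairs, smaller than that of Myh1 over Myh7 in 29.7%, and smaller than that of Myh4 over Myh7 in 17.9%. For the pairs of fast chains the shares were 4.76% for Myh1 over Myh2, 5.61% for Myh4 over Myh2 and 4.34% for Myh4 over Myh1. The ratios to Myh7 were thus not wide for bright probes of these arrays. The array also holds 2 probes each for Igf1 and Fn1, and the log2 ratio between the probes of 1 gene had an SD of 0.40 for Igf1 and 0.17 for Fn1. The spread of the fast-to-slow ratios lay between these, and was therefore no larger than that between 2 probes for Igf1, both dimmer than the heavy chains. No array was repeated, so measurement noise and differences between animals cannot be told apart.

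**Figure D3:**
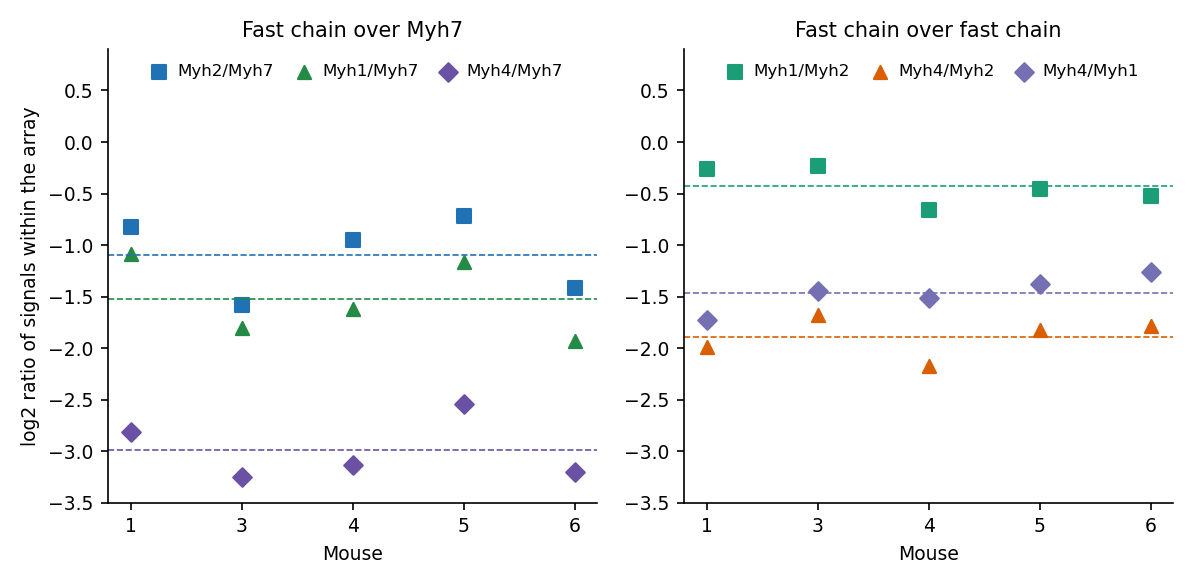
Log2 ratio of signals within each array for the fast chains over Myh7 (left) and for the fast chains over one another (right); each point is 1 mouse and each dashed line the mean of 5 mice. In the left panel mice 1 and 5 lie above the mean line for all 3 chains and mice 3 and 6 below it, and the points on the right lie closer to their lines, with ranges of 1.35- to 1.41-fold against 1.63- to 1.82-fold.

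The genes whose signal ran most evenly with each chain were found by the SD over the 5 mice of the within-array log2 ratio, a measure that needs no scaling between arrays. It was computed over the 146 other probes above 0 in every mouse. It favours bright probes, as the median SD was 0.51 over pairs of the 49 brightest probes and 0.75 over all 10731 pairs, and nothing about shared function follows from it. The genes were picked for small SDs, so their narrow ratios and shared highest and lowest mice are no separate result.

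Beside Myh7 stood Mef2c, a muscle transcription factor, with an SD of 0.09 against a median of 0.52 over all probes. Mef2c was at 0.396, 0.394, 0.324, 0.252 and 0.473. Like Myh7 it was lowest in mouse 5 and highest in mouse 6, and its ratio to Myh7 stayed between 0.0744 and 0.0878. Itgb1, the integrin beta 1 subunit, and Pdgfrb, a growth factor receptor of pericytes and fibroblasts, came next with SDs of 0.12 and 0.15. Mef2c remained among the 3 nearest genes whichever mouse was left out, but not with quantile-normalised values, where Itgb5, Ccnd1 and Cox6a2 were nearest.

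Beside Myh2 stood Ldhb, the heart-type lactate dehydrogenase subunit, with an SD of 0.09 against a median of 0.61. Ldhb was at 1.20, 0.608, 0.748, 0.657 and 0.912, highest in mouse 1 and lowest in mouse 3, as Myh2 was. Acadl, of long-chain fatty acid oxidation, and Pdha1, of the pyruvate dehydrogenase complex, followed with SDs of 0.09 and 0.12. Ldhb remained among the 3 nearest whichever mouse was left out and with quantile-normalised values. Of the heavy chains, Myh1 was in place 6 of 146 beside Myh2, Myh4 in place 8 and Myh7 in place 27.

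Leaving out the other heavy chains, as for all these lists, the nearest genes to Myh1 were Ucp3, a mitochondrial carrier of muscle, at an SD of 0.13, Eno2, an enolase, at 0.17, and Ldhb at 0.18. Without mouse 6, and also with quantile-normalised values, 0 of these 3 genes remained among the nearest. Myh4 and Myh2 were in places 3 and 5 beside Myh1, and Myh7 in place 31. Beside Myh4 stood Pgk1, a glycolytic enzyme, at 0.10, Mdh2 of the citrate cycle at 0.13, and Fabp4 at 0.13. Pgk1 remained among the 3 nearest whichever mouse was left out and with quantile-normalised values. Fabp4 is a fat cell marker that other cells also express, and was at 0.228, 0.131, 0.138, 0.134 and 0.205. Of the 4 fat markers listed, 2 are on the array, and the other, Lipe, was at or below 0 in every mouse. The part of fat cells in this likeness was not tested. Around Myh4, Myh1 was in place 8, Myh2 in place 11 and Myh7 in place 27.

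**Figure D4:**
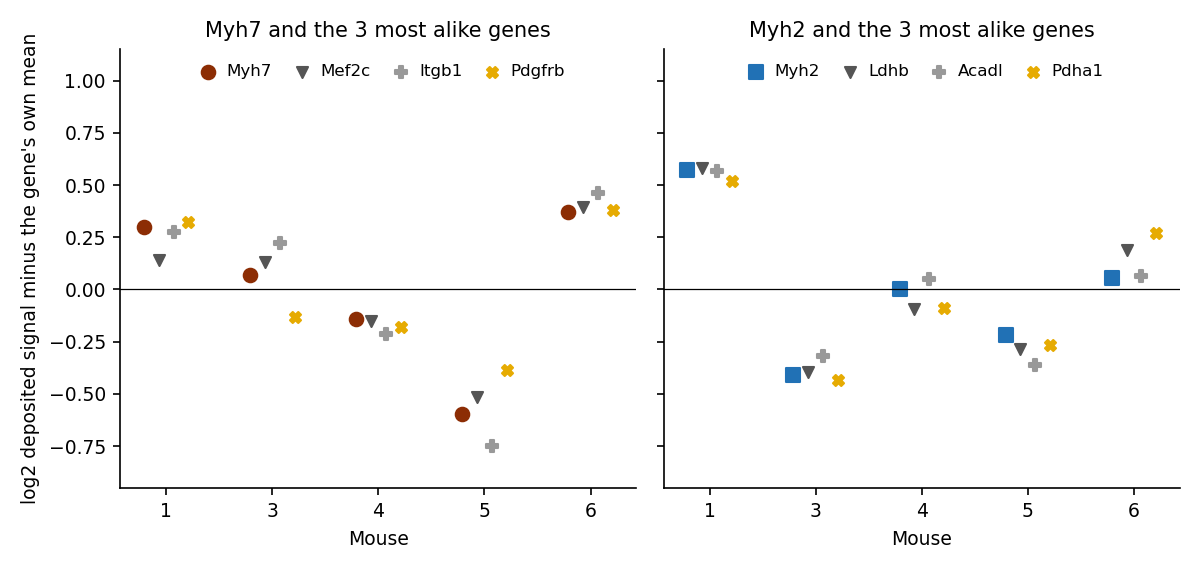
Log2 deposited signal minus the gene's own mean over 5 mice, for Myh7 with its 3 nearest genes (left) and Myh2 with its 3 nearest genes (right); each point is 1 gene on 1 array, and scaling between arrays is not removed. Myh7 and Mef2c are both lowest in mouse 5 and highest in mouse 6, and Myh2 and Ldhb are both highest in mouse 1 and lowest in mouse 3.

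Genes of the fibre programmes were then set beside the slow and the fast chain, by counting those whose log2 ratio varied less to Myh7 than to Myh2. Over all 143 other probes above 0 in every mouse this was 72.0%. The count was 103 of 143 with the values as deposited and 49 of 143 with quantile-normalised values.

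Of the 26 other sarcomere genes listed, 2 are on the array, and both were nearer to Myh7, against 72.0% of all probes, or 1 of the 2 with quantile-normalised values. Des (desmin), the intermediate filament that ties myofibrils together, was at 1.74, 1.22, 0.825, 0.799 and 1.33, and its SD was 0.24 to Myh7 and 0.39 to Myh2. Ttn (titin), the spring of the sarcomere, was at 0.764, 1.06, 1.27, 0.604 and 1.09, and its SDs were 0.42 and 0.61. Unlike Myh7, Ttn was highest in mouse 4.

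Of the 15 genes listed for slow oxidative fibres, 10 are on the array. All 10 were above 0 in every mouse, as were 147 of all 223 probes. Of these 3 were nearer to Myh7 than to Myh2, namely Cox8a, Lpl and Cpt1b, against 72.0% of all probes. The list includes Ucp3, the gene nearest to Myh1 above, with SDs of 0.40 to Myh7, 0.15 to Myh2 and 0.13 to Myh1. Whether the genes of this list separate type I from type IIA or other fast fibres was not tested. Mb (myoglobin), the oxygen store of red fibres, varied with an SD of 0.52 to Myh7 and 0.28 to Myh2. Its ratio to Myh7 ranged 2.74-fold. Fabp3, a fatty acid carrier, had SDs of 1.05 and 0.68 and a 5.98-fold range of its ratio to Myh7. The median SD of the list was 0.35 to Myh7, 0.31 to Myh2, 0.42 to Myh1 and 0.30 to Myh4. The count of 3 moved with single mice, and was 6 without mouse 3, 5 without mouse 5 and 1 without mouse 6, beside 116, 100 and 82 of all 143 probes in the same settings. With quantile-normalised values it was 2 of 10, beside 49 of 143.

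Of the 13 fast glycolytic genes listed, 4 are on the array. Aldoa and Ldha, an aldolase and the muscle-type lactate dehydrogenase subunit, were nearer to Myh7, and Gapdh and the glucose transporter Slc2a4 nearer to Myh2, a count of 2 of 4 against 72.0% of all probes. It was 1 without mouse 5, 1 without mouse 6 and 1 with quantile-normalised values. The Ldha probe was dim, at 0.0223, 0.0115, 0.0110, 0.0086 and 0.0174. In mice 3, 4, 5 and 6 it lay below the median of its array, so its place in the count is uncertain. Slc2a4 had an SD of 0.47 to Myh7 and 0.18 to Myh2. Whether Slc2a4 belongs with the genes of fast glycolytic fibres was not tested.

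Of the 17 regulators of fibre type listed, 9 are on the array and 7 were above 0 in every mouse, measured by 8 probes. Over the whole array 147 of 223 probes were above 0 in every mouse. All 8 probes were nearer to Myh7 than to Myh2, against 72.0% of all probes, or 4 of the 8 with quantile-normalised values. The count was 6 without mouse 1, 7 without mouse 4 and 6 without mouse 6, beside 94, 99 and 82 of all 143 probes. The 2 probes for Igf1 were nearer still to Myh4, at SDs of 0.47 and 0.70 against 0.56 and 0.74 to Myh7. The SDs of the 8 probes were wide, with medians of 0.56 to Myh7 and 0.80 to Myh2. Ppara, Mef2a and Myog were dim, with mean signals of 0.0238, 0.0149 and 0.0266. The other probes had means from 0.0913 for Srf to 0.368 for Mef2c. After Mef2c the nearest to Myh7 was Myf6, the myogenic factor of mature fibres, at an SD of 0.19, with signals of 0.0915, 0.0952, 0.0756, 0.0690 and 0.126. Srf (serum response factor), at 0.0286 in mouse 1 and 0.248 in mouse 6, had the widest ratio to Myh7 in the list, with a range of 8.25-fold. Myod1 was above 0 in 4 mice, and Myf5 was at or below 0 in all.

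**Figure D5:**
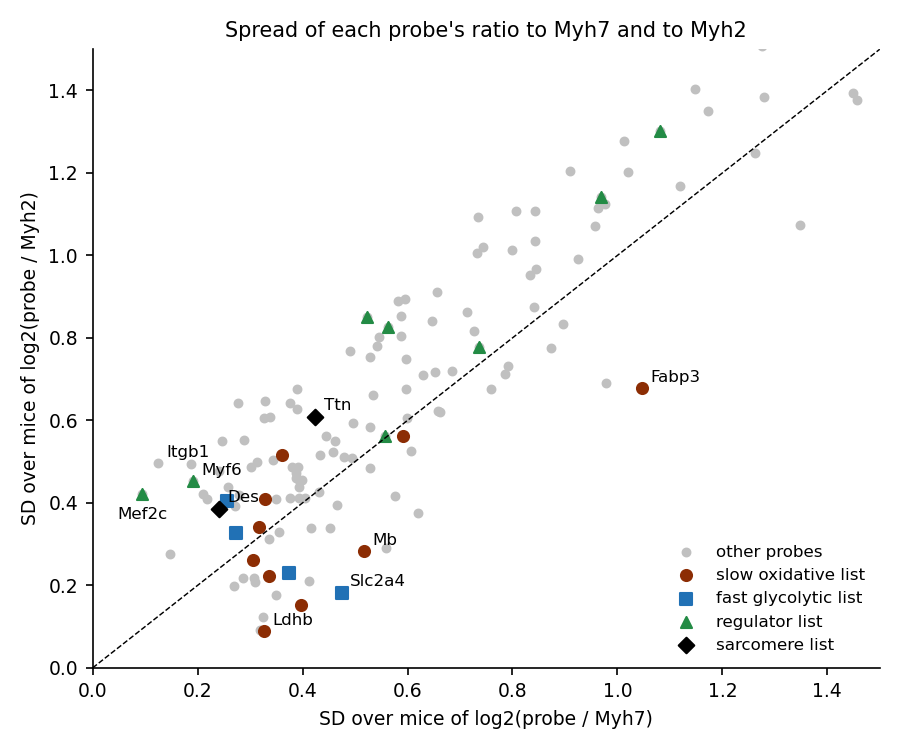
For each probe above 0 in all 5 mice, the SD over mice of its log2 ratio to Myh7 (horizontal) and to Myh2 (vertical); colours mark the 4 gene lists, and 8 of 143 probes lie outside the axes. Points above the dashed line, 103 of 143 with those outside the axes included, varied less relative to Myh7; Mef2c lies far to the left, and Ldhb, Mb and Slc2a4 lie below the line.

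Of the listed muscle fibre markers 8 are on the array, and 4 of these are the heavy chains themselves. All 8 were above 0 in every mouse, as were 147 of all 223 probes. Without the heavy chains, the summed signal of the fibre markers was 10.7, 5.75, 6.76, 7.07 and 9.87. The sum of the 6 endothelial markers ran from 0.369 in mouse 3 to 0.876 in mouse 6. That of the 4 fibroblast marker probes ran from 0.568 in mouse 4 to 2.18 in mouse 6. Most of it came from 1 Fn1 probe, at 0.472 and 1.90 in these mice. Pdgfra was highest in mouse 3, at 0.0485, and the other fibroblast probes in mouse 6. All these sums are of deposited signals and also hold the brightness of the arrays. Of the 7 immune markers listed, 4 are on the array, namely Il1b, Il6, Csf3r and Btk. None of these was above 0 in every mouse, and 3 were at or below 0 in all, with a sum of at most 0.0230. The listed Ptprc, Cd68 and Adgre1 are not on the array, nor are the listed nerve, blood and smooth muscle markers. Whether immune or those other cells were present was therefore not tested. The part of other cells in the heavy chain ratios was not tested.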

How the data were processed

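The intensities deposited by the authors are linear values for 223 probes on 5 arrays. How background, scaling and scanning were handled is not stated per the labels. Values below 0 occur on every array, and totals differ. Probes were named through the platform annotation, which gives 205 of the 223 a symbol, updated by gene identifier to the RefSeq table of GRCm38.p6.

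Ratios, shares and orders were computed within each array from the values as deposited, with SDs on the log2 scale of the ratios. Probes above 0 on all 5 arrays, 147 in all, entered the likeness measure, which was tested on 200 simulated data sets. It found 99.3% of the planted probes. These followed their reference more closely than any gene followed a chain here, among probes that otherwise varied independently. The simulation therefore checks the calculation and not the lists of nearest genes. With 1 group no test between conditions was possible, and no p-values are given. The number of arrays limits the precision. The members and lists were chosen with earlier results of these data known. Named genes are the 4 chains, the 3 most alike genes of each, and measured genes of the 4 lists. Sequences are from RefSeq. Alternatives were quantile normalisation, subtraction of each array's lowest or median value, leaving out the dimmest 25% of probes, and leaving out each mouse. Python 3.11.15, numpy 2.4.6, pandas 2.3.3 and matplotlib 3.10.9 were used.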

Additional observations from a re-analysis of the deposited data

Results flagged for a closer look

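Sets of 5 values were checked for a mouse far from the others, by the gap to its nearest neighbour as a share of the whole range, with 0.710 as the limit. Of 50 sets, 14 on the heavy chains and 36 on ratios of other genes to them, 2 passed. Mef2c over Myh7 is among the 36 in duplicate. Chance alone gives about 1 in 20 for independent sets, and these share probes and arrays.

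The deposited signal of Myh1 in mouse 1, 2.51, stood above the other mice with a gap of 0.848 of the range. No share of Myh1 and no ratio of Myh1 to another chain passed the limit. The log2 ratio of Pdha1 to Myh2 in mouse 6, -2.44, stood above that of the other mice with a gap of 0.778 of the range.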

How the results depend on the processing

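All 6 ratios, all 4 shares and the order of the chains moved by less than the SD between mice, or not at all for the order, under the alternatives run for them. The genes nearest to a chain were less stable. With quantile-normalised values 0 of the 3 genes nearest to Myh7 were kept, 1 of those of Myh2 and 0 of those of Myh1. Leaving out 1 mouse kept 1 to 3 of the 3 for Myh7, 1 to 3 for Myh2, 0 to 2 for Myh1 and 1 to 3 for Myh4. The counts of probes nearer to Myh7 than to Myh2, alternatives chosen after seeing the data, were 49 of all 143 probes, 1 sarcomere gene, 2 slow oxidative genes, 1 fast glycolytic gene and 4 regulator probes with quantile normalisation. Leaving out 1 mouse gave 1 to 6 of the slow oxidative genes and 1 to 2 of the fast glycolytic genes. It gave 6 to 8 of the regulator probes and 82 to 116 of all probes. The cause of these shifts was not tested. No paired analysis was possible because there is a single group.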
